A study of Mus musculus with 6 samples.

Results

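Innate inflammatory signalling was examined in mouse liver through 10 genes that run from cytokine ligand to receptor, adaptor, transcription factor and feedback inhibitor: Tnf, Il1b, Tlr2, Tlr4, Cd14, Myd88, Nfkb1, Nfkbia, Nfkbiz and Tnfaip3. They were taken by name, as every probe whose RefSeq accession maps to one of these genes, which gave 15 of the 56605 probes and 10 of the 22911 named genes. The tested livers came from 3 male LKO mice, whose liver lacks the fatty acid elongase gene Elovl6. The reference livers came from 3 male control mice, whose titles call them Flox. All 6 mice ate a high-sucrose diet (D11725) for 14 days and were fasted for 4 hours, and each liver was read on its own Agilent one-colour array. The Cre driver of the deletion, the age and the litters of the mice were not given in the sources used here, so the spread between mice is the only error that the p-values measure.

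In this pathway, Toll-like receptors on Kupffer cells, other macrophages and some hepatic cells recognise microbial products, and TNF and IL-1 receptors recognise the cytokines those cells release. Both kinds of receptor lead, through their adaptors, to kinases that release NF-kB from its inhibitors. MyD88 is the adaptor of most Toll-like receptors and of the IL-1 receptor. NF-kB then drives inflammatory genes together with its own inhibitors, so that transcripts such as Nfkbia and Tnfaip3 are commonly read as a record of recent activity. In liver, cytokines of this pathway also act on hepatocytes to raise acute phase proteins.

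The stretches upstream of 3 members are shown because they hold the binding motif of the factor the pathway ends in. The third LKO mouse had the highest value of all 6 mice for each of these genes. That does not set them apart, since it held for 9 of the 10 members, Il1b and Myd88 without a match among them. The RefSeq promoter table (GRCm38.p6) held 6 of the 10 members. Capitals mark matches to the kappa B consensus, the classical decamer bound by NF-kB, searched on both strands in the 250 bases before each start site.
Tlr2, chr3:83841609-83841858, minus strand: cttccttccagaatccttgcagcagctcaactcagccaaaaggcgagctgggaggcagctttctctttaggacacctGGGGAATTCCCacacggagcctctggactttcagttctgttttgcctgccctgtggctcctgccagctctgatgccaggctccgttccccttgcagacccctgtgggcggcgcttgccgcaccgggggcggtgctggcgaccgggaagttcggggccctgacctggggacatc
Nfkbia, chr12:55492648-55492897, minus strand: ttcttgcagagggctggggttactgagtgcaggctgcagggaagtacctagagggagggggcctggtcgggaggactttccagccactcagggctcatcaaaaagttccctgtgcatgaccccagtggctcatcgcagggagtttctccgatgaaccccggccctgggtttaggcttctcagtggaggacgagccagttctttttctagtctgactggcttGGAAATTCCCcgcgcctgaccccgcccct
Tnfaip3, chr10:19015411-19015660, minus strand: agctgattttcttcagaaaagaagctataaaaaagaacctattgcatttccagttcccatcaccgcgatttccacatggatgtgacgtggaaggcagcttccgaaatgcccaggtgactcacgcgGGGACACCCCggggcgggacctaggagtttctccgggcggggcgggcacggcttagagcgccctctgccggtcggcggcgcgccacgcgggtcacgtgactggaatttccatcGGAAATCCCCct
The Tlr2 stretch holds 2 matches that overlap in all but 1 base, beginning 173 and 172 bases before the start. The Nfkbia match begins 29 bases before the start, and those of the first Tnfaip3 start site begin 125 and 12 bases before it. The consensus occurred in 7.25% of the 32851 promoter stretches of this length in the table. The stretches of Tnf, Il1b and Myd88 and of the second Tnfaip3 start site had no match, which says only that these letters are not in this window. A match is a string of letters here and not a measured binding site.

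Elovl6 checked the labels. Its scaled signal, the processed signal divided by the 75th percentile of its array, was 0.228, 0.334 and 0.364 in LKO livers, against 21.3, 43.0 and 22.8 in control livers. The arrays lay on 1 slide and were scanned once, with between 52.1% and 56.6% of spots well above background and 0 saturated spots. The 3 control arrays and LKO 1 shared a column of the slide, while LKO 2 and LKO 3 lay in the other column. Of 14170 genes tested with limma, 2 (0.0141%), Elovl6 and the ubiquitin protease gene Usp17la, passed an adjusted p of 0.05, and 1582 (11.2%) had an unadjusted p under 0.05. The median log2 change over all genes tested was 0.00313. Hepatocyte markers were bright on every array, with a summed scaled signal of 5290 to 5390 in LKO and 5100 to 5150 in control livers.

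The 10 genes tended to be higher in LKO livers, and much of the difference lay in 1 mouse. All 10 had a probe that cleared background on each of the 6 arrays. A higher mean in LKO was found for 9 of 10, against 50.8% of all genes tested, with a median log2 change of 0.37. Without LKO 3 it was 6 of 10. The members and the lists below were chosen with earlier results of these data known. The shares of all genes tested, here and below, are therefore a description and not a test. The largest differences were in Nfkbiz (2.09-fold) and Tnf (1.89-fold), each read from the brighter of 2 probes, and Il1b had the only lower mean. The second Nfkbiz probe gave 1.185-fold, and the second Tnf probe was not well above background on any array. None of the 10 passed the threshold in limma (adjusted p between 0.223 and 0.918). At an unadjusted p under 0.05 in limma there were 3 of 10, Tnf, Nfkbia and Nfkbiz, all higher, against 5.56% of all genes tested that were higher at that level. That count was not stable: it was 1 without LKO 2, 1 without LKO 3, 2 with averaged probes and 5 without LKO 1. The groups did not overlap for 3 of 10, Tnf, Myd88 and Nfkbia, against 17.3% of all genes tested. In all 3 the LKO livers were higher, against 8.11% of all genes tested with the groups apart in that direction and 9.21% in the other. An exact two-sided permutation test over the 6 mice gave p = 0.1 for these 3 genes, the smallest p that 3 mice against 3 allow.

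**Figure D1:**
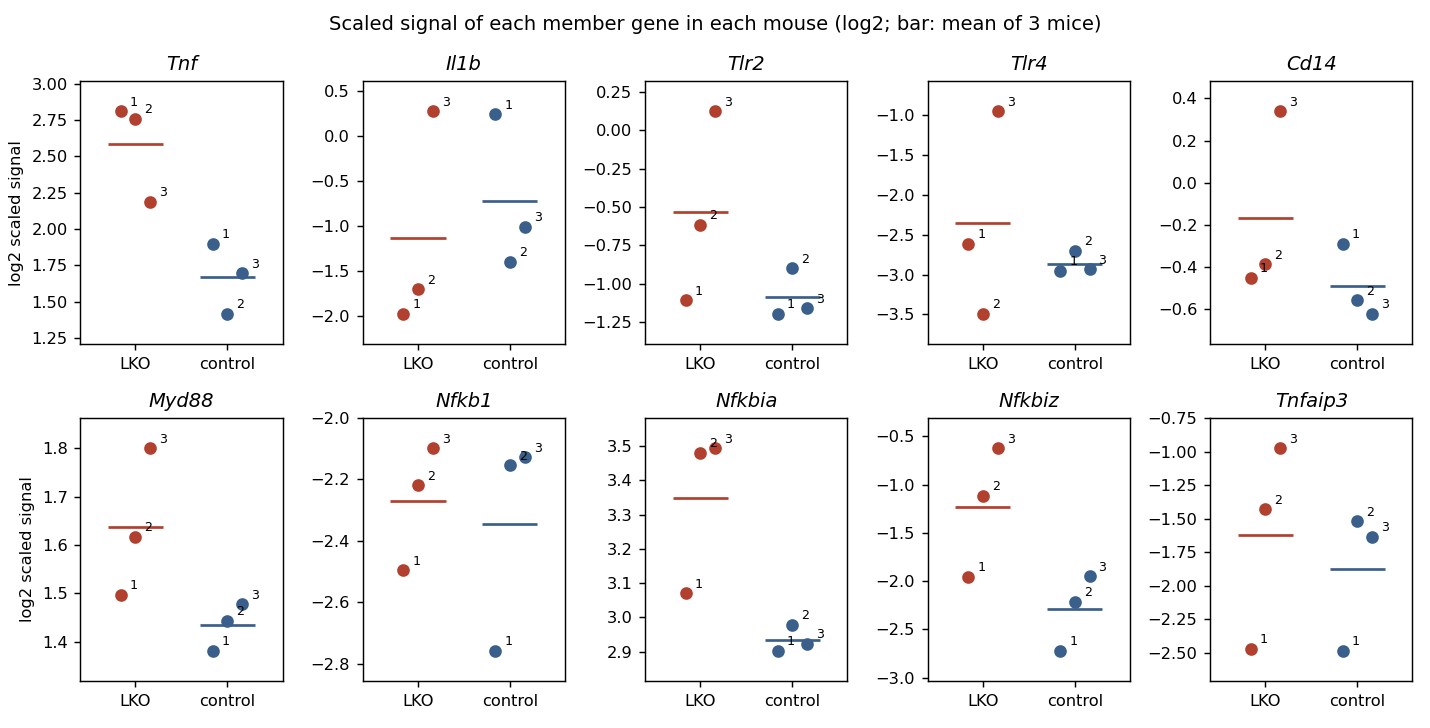
Log2 scaled signal (log2 of the processed signal over the 75th percentile of its array) of the 10 genes, with LKO left of control in each panel, a point for each mouse numbered by replicate and a bar at the mean of 3 mice. LKO 3 is the highest point in every panel except that of Tnf, and the groups are apart only for Tnf, Myd88 and Nfkbia.

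Among the ligands, Tnf encodes tumour necrosis factor, a cytokine made chiefly by macrophages. Its scaled signal was 7.01, 6.78 and 4.56 in LKO livers, against 3.72, 2.67 and 3.23 in control livers. All 3 LKO mice were above all 3 controls, and Tnf was the only member for which LKO 3 was the lowest of the LKO mice. The means were 6.12 ± 1.35 in LKO and 3.21 ± 0.529 in control (SD, n = 3 each), a log2 change of 0.92 ± 0.20 (SE, 95% interval 0.44 to 1.40) with an unadjusted p of 0.00288 and an adjusted p of 0.223 in limma. These values come from probe A_55_P2740937. The other probe for the same transcript, A_51_P385099, was not well above background on any of the 6 arrays, so the difference in Tnf was seen with 1 of its 2 probes. Its processed signals were 3.32, 7.73 and 14.0 in LKO livers, against 4.22, 5.94 and 3.67 in control livers, and among these values below background the highest was that of LKO 3. Where either probe lies on the transcript was not analysed here, and whether the bright probe reads Tnf alone was not tested.

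Il1b encodes interleukin-1 beta, a cytokine that is made as a precursor and cut by caspase-1. Scaled signals of Il1b were 0.253, 0.306 and 1.21 in LKO livers, against 1.18, 0.379 and 0.497 in control livers. LKO 3 and control 1 were high, the other 4 mice were low, and the groups overlapped. The log2 change was -0.42 ± 0.67 (SE, 95% interval -2.02 to 1.19, adjusted p = 0.861), so an increase or a decrease could not be told apart. Without LKO 1 the change was 0.00551 and without control 1 it was 0.067, while without LKO 3 it was -1.12. The second Il1b probe ordered the mice in much the same way, with 0.0867, 0.0719 and 0.353 in LKO livers, against 0.355, 0.0896 and 0.122 in control livers.

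Among the receptors, Tlr2 recognises bacterial lipoproteins as a pair with Tlr1 or Tlr6. In scaled signal, Tlr2 was 0.465, 0.653 and 1.09 in LKO livers, against 0.437, 0.537 and 0.449 in control livers. LKO 2 and LKO 3 were above every control and LKO 1 lay within the control range. The log2 change was 0.55 ± 0.29 (SE, adjusted p = 0.548), and 0.22 without LKO 3.

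Tlr4 is the receptor for bacterial lipopolysaccharide. Tlr4 had scaled signals of 0.163, 0.0889 and 0.515 in LKO livers, against 0.129, 0.154 and 0.131 in control livers. The LKO mice held both the highest and the lowest value, and the controls lay between them. The spread within LKO (SD 1.29 on the log2 scale) was far wider than within control (0.14). The probe was dim: the processed signal of LKO 2 was 23.5, on an array whose lowest signal above background was 17.4. The log2 change of 0.51 ± 0.58 (SE, 95% interval -0.88 to 1.89) turned to -0.19 without LKO 3. It was 1.08 without LKO 2 and 0.305 with normexp. A second Tlr4 probe did not clear background on any array.

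Cd14 hands lipopolysaccharide to the Tlr4 complex and also serves Tlr2. Its scaled signal was 0.732, 0.764 and 1.26 in LKO livers, against 0.818, 0.679 and 0.650 in control livers. Only LKO 3 was above all controls. The log2 change was 0.32 ± 0.22 (SE, adjusted p = 0.640), and 0.071 without LKO 3. Its second probe gave 0.33, with the groups overlapping there too.

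Myd88 encodes the adaptor that links most Toll-like receptors and the IL-1 receptor to their kinases. Myd88 had scaled signals of 2.82, 3.07 and 3.48 in LKO livers, against 2.61, 2.72 and 2.79 in control livers. The groups did not overlap, although LKO 1 and control 3 nearly touched. The log2 change was small, 0.20 ± 0.10 (SE, 95% interval -0.039 to 0.446, adjusted p = 0.523), and 0.12 without LKO 3.

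Nfkb1 encodes an NF-kB subunit and its precursor. Nfkb1 had scaled signals of 0.177, 0.215 and 0.234 in LKO livers, against 0.148, 0.225 and 0.229 in control livers. The groups overlapped almost fully. The log2 change of 0.076 ± 0.196 (SE, 95% interval -0.392 to 0.545) was -0.00974 without LKO 3, -0.129 without control 1 and -0.00983 with normexp background correction.

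**Figure D2:**
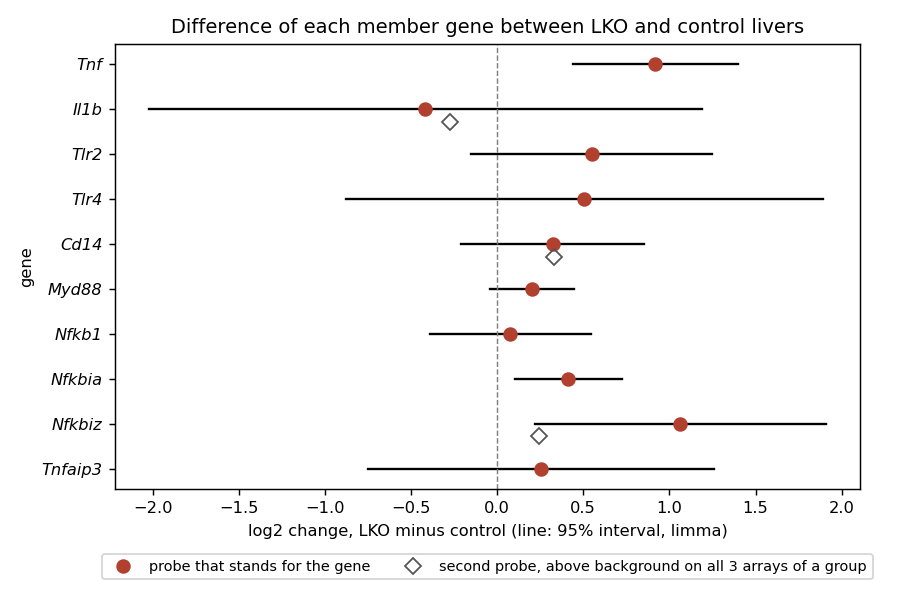
Log2 change of each of the 10 genes, LKO minus control, with the 95% interval from limma as a line, and the change of a second probe where one cleared background on all 3 arrays of a group. The intervals of Tnf, Nfkbia and Nfkbiz lie above 0, those of the other 7 genes include 0, and that of Il1b is the widest.

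Of the feedback genes, Nfkbia encodes the inhibitor that holds NF-kB in the cytoplasm and is itself resynthesised when NF-kB is active. For this gene the scaled signal was 8.41, 11.2 and 11.3 in LKO livers, against 7.48, 7.88 and 7.58 in control livers. All LKO mice were above all controls, and the SD on the log2 scale was 0.24 in LKO, against 0.039 in control. The means were 10.3 ± 1.62 in LKO and 7.65 ± 0.208 in control (SD, n = 3 each). The log2 change was 0.41 ± 0.13 (SE, 95% interval 0.103 to 0.725, unadjusted p = 0.0165, adjusted p = 0.341 in limma), and it lay between 0.34 and 0.55 when any 1 mouse was left out.

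Nfkbiz encodes a nuclear relative of these inhibitors that is needed in mouse macrophages for a subset of inflammatory genes, Lcn2 among them. Nfkbiz had scaled signals of 0.258, 0.461 and 0.650 in LKO livers, against 0.152, 0.216 and 0.259 in control livers. LKO 2 and LKO 3 were above every control, and LKO 1 matched the highest control. The log2 change was 1.06 ± 0.35 (SE, 95% interval 0.217 to 1.91, unadjusted p = 0.0210, adjusted p = 0.358). It was 0.76 without LKO 3, 0.68 with normexp and 0.65 when both probes were averaged. The second probe, well above background on all 3 LKO arrays and on 2 of the 3 control arrays, gave a log2 change of 0.24, with LKO 1 below every control.

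Tnfaip3 encodes a ubiquitin-editing enzyme that ends signalling from TNF and Toll-like receptors. Its scaled signal was 0.180, 0.371 and 0.509 in LKO livers, against 0.179, 0.349 and 0.322 in control livers. LKO 1 and control 1 were low by about the same amount, and only LKO 2 and LKO 3 were above every control. The log2 change of 0.25 ± 0.42 (SE, adjusted p = 0.867) was -0.071 without LKO 3 and -0.0489 without control 1.

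The LKO mice differed among themselves. LKO 3 was above all 3 controls in 10 of 10 genes, LKO 2 in 6 and LKO 1 in 4. The share of all genes tested for which a given mouse was above all 3 controls was not computed. LKO 3 had the highest value of the 6 mice in 9 of 10 genes, against 19.1% of all genes tested. The median difference of the 10 genes from the control mean was 0.051 in LKO 1, 0.31 in LKO 2 and 0.87 in LKO 3, and it lay between -0.070 and 0.063 in the controls. Over all genes tested, the same median was between -0.0037 and 0.012 in the LKO mice. With LKO 3 left out, the median log2 change of the members was 0.097, against 0.37 with all mice. LKO 1 was the only LKO mouse that shared a slide column with the controls, so slide column and mouse cannot be told apart for LKO 2 and LKO 3. A fit with the column as a term, which sets only LKO 1 against the controls, gave a median of 0.051 and a change of 1.14 for Tnf.

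**Figure D3:**
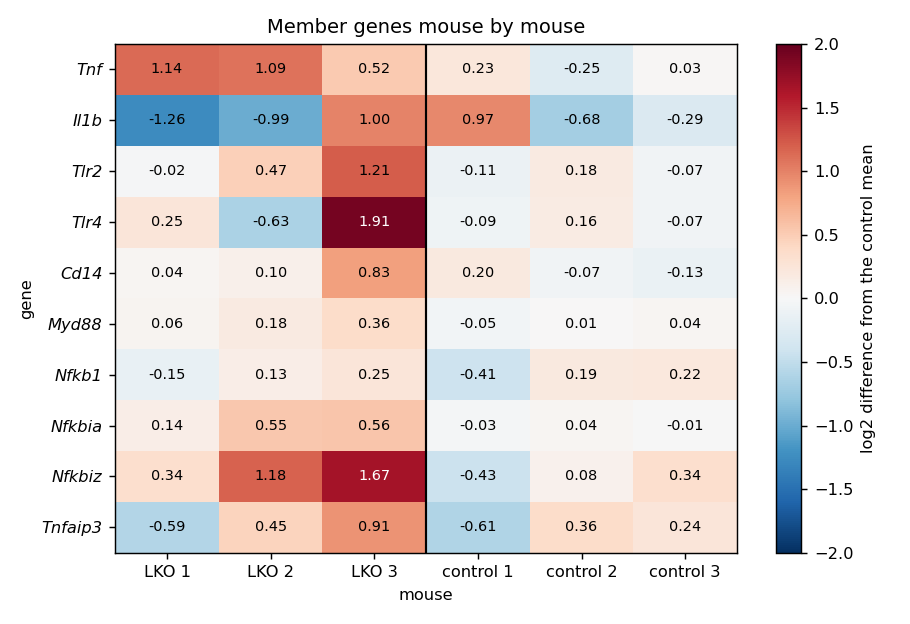
Log2 difference of each of the 10 genes (rows) in each mouse (columns, LKO left of control) from the mean of the 3 controls, with the value printed in each cell. Values in LKO 3 are above 0 for all 10 genes, from 0.25 for Nfkb1 to 1.91 for Tlr4, while Tnf alone has its highest values in LKO 1 and LKO 2.

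**Figure D4:**
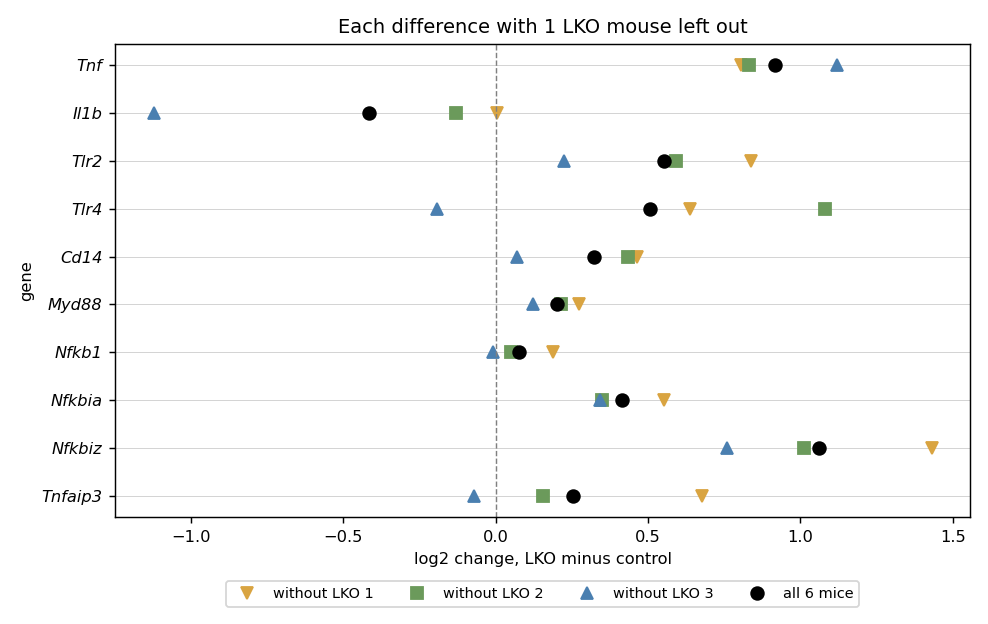
Log2 change of each of the 10 genes, LKO minus control, with all 6 mice and with each LKO mouse left out in turn. Without LKO 3 the points of Il1b, Tlr4, Nfkb1 and Tnfaip3 lie below 0, and those of Tnf, Tlr2, Cd14, Myd88, Nfkbia and Nfkbiz are above 0 in all 4 settings shown.

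Likeness of pattern was measured as the root mean square difference between profiles over the 6 arrays, each centred on its own mean, in log2 units. The profiles nearest to Tnf were those of Psd (0.135), Pcbp4 (0.166) and B3galt1 (0.176), and its nearest fellow member, Nfkbia, was at 0.425. Nearest to Nfkbia were Gne (0.0279), Pdia5 (0.0335) and Litaf (0.0457), whose log2 changes were 0.46, 0.42 and 0.41. Nearest to Nfkbiz were Cyb561 (0.148), Retnlg (0.164) and Saa4 (0.206), the last 2 being a neutrophil transcript and a serum amyloid A gene. Nearest to Tnfaip3 were Bhlhe40 (0.0467), Cx3cr1 (0.148) and Zfp36l2 (0.155). Among members, Myd88 was the nearest to Nfkbia (0.138), Nfkb1 (0.195) and Cd14 (0.224), and these 4 genes are also the members that varied least over the arrays.

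For Tlr2 the nearest profiles were those of Shb (0.0873), Rab7b (0.0951) and Armcx4 (0.101), and for Cd14 those of Snx20 (0.0544), Alpl (0.0823) and Gm15545 (0.0881). For Il1b they were Rec114 (0.139), Igfbp1 (0.354) and Slc25a25 (0.428), all with lower means in LKO, by 0.41, 0.83 and 0.81 on the log2 scale. Tlr4 was nearest to Gm867 (0.246), Olfr1383 (0.270) and Gm16118 (0.272). Myd88 was nearest to H4c9 (0.0239), Cldn14 (0.0316) and Rbm6 (0.0324), and Nfkb1 to Cav2 (0.0419), Pola1 (0.0492) and Gm5640 (0.0701). With 6 arrays and 14170 genes, some profile close to any gene is found, so these neighbours are a description.

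Other genes of the pathway were read from 6 lists, in which 0 genes passed over all genes tested. Of 19 tested co-receptors, adaptors and kinases of Toll-like receptors, 11 were higher and 8 lower in LKO, with a median log2 change of 0.023. Lbp, the plasma protein that delivers lipopolysaccharide to Cd14, was 5.30, 12.8 and 11.7 in LKO livers, against 4.26, 4.10 and 4.99 in control livers (scaled signal, log2 change 1.06 ± 0.33 SE, adjusted p = 0.330). Without LKO 1 it passed, with a change of 1.46 and an adjusted p of 0.0326, whereas with the slide column in the fit its change was 0.26. With LKO 1 left out, all LKO arrays lie in the other slide column from the controls, so group and column coincide in that setting. Tlr6, a partner of Tlr2, was 0.129, 0.194 and 0.190 in LKO livers, against 0.107, 0.121 and 0.0658 in control livers (log2 change 0.83 ± 0.26 SE, adjusted p = 0.343). Both genes were higher in every LKO mouse than in every control, both by little in LKO 1. The groups did not overlap for 3 of the 19 genes, against 17.3% of all genes tested.

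Of 15 other NF-kB subunits, inhibitor proteins and inhibitor kinases, 12 were higher and 3 lower with a median of 0.13, none had an unadjusted p under 0.05, and the groups overlapped for all 15. Bcl3, a nuclear co-regulator related to the inhibitors, had the smallest p and was 8.08, 15 and 26.7 in LKO livers, against 8.19, 9.01 and 9.51 in control livers (log2 change 0.73 ± 0.39 SE, adjusted p = 0.550). LKO 1 was below the controls, LKO 3 was far above them, and the change was -0.14 once the slide column was in the fit. Ikbke, an inhibitor kinase, had a log2 change of 0.28 ± 0.17 (SE). Relb and Nfkb2, subunits of the alternative NF-kB pathway that were chosen after their values were seen, were also highest in LKO 3 and lowest in LKO 1. Relb was 0.216, 0.312 and 0.651 in LKO livers, against 0.235, 0.298 and 0.260 in control livers. Nfkb2 was 1.03, 1.17 and 2.09 in LKO livers, against 1.12, 1.07 and 1.23 in control livers. LKO 3 was the highest mouse for 7 of the 15 genes, against 19.1% of all genes tested. The Toll-like receptor list did not share this, with LKO 3 highest for 2 of its 19 genes. Counts in the lists that follow were 6 of 14 for feedback and RNA decay and 9 of 18 for TNF receptors. They were 10 of 14 for the IL-1 family and inflammasome and 10 of 22 for NF-kB targets.

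Feedback and RNA decay genes were mixed in direction. Of 14 tested, 8 were higher and 6 lower with a median of 0.024. The 2 with the smallest p were lower in LKO: Socs1, an inhibitor of cytokine receptor signalling, was 0.111, 0.129 and 0.175 in LKO livers, against 0.205, 0.176 and 0.180 in control livers (log2 change -0.46 ± 0.17 SE, adjusted p = 0.413). Dusp1, a phosphatase of stress kinases, was 1.95, 2.07 and 5.02 in LKO livers, against 4.02, 5.03 and 7.66 in control livers (log2 change -0.98 ± 0.41 SE, adjusted p = 0.443). LKO 3 overlapped the controls for Dusp1, and Socs1 values in LKO 3 nearly reached them.

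Of 18 tested TNF receptors and adaptors, 12 were higher and 6 lower with a median of 0.080. Birc3, a ubiquitin ligase of the TNF receptor complex and itself a target of NF-kB, was 0.218, 0.155 and 0.179 in LKO livers, against 0.263, 0.325 and 0.333 in control livers. All LKO mice were below all controls, and the log2 change was -0.74 ± 0.16 (SE, unadjusted p = 0.00232, adjusted p = 0.208). The groups did not overlap for 2 of the 18 genes, against 17.3% of all genes tested. Traf1, an adaptor of the same family of receptors, had a log2 change of 0.33 ± 0.12 (SE, adjusted p = 0.398).

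Of 14 tested genes of the IL-1 family and inflammasome, 13 were higher, against 50.8% of all genes tested, with a median of 0.16, and 4 were higher at an unadjusted p under 0.05, against 5.56% of all genes tested. Il1r1, the signalling receptor of IL-1, was 1.62, 1.62 and 1.96 in LKO livers, against 0.959, 1.24 and 1.27 in control livers (log2 change 0.59 ± 0.14 SE, unadjusted p = 0.00484, adjusted p = 0.252). Gsdmd, the pore-forming protein that inflammatory caspases cut, was 4.28, 4.91 and 5.22 in LKO livers, against 3.65, 3.90 and 3.46 in control livers (log2 change 0.38 ± 0.11 SE, adjusted p = 0.284). For both genes every LKO mouse was above every control, LKO 1 included. The groups did not overlap for 4 of the 14 genes, against 17.3% of all genes tested. Another of the 4 was Il1r2, the decoy receptor, at 0.0690, 0.0820 and 0.158 in LKO livers, against 0.0477, 0.0646 and 0.0415 in control livers. It was chosen after its value was seen, and it entered the test through the LKO arrays, with 1 of the 3 control arrays above background.

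Of 22 tested targets of NF-kB, 14 were higher and 8 lower with a median of 0.25, against 50.8% of all genes tested that were higher. That median ranged from -0.015 to 0.51 with 1 mouse left out, and was -0.15 with the slide column in the fit. At an unadjusted p under 0.05, 4 were higher, against 5.56% of all genes tested. Ccl3, a chemokine for monocytes and macrophages, cleared background on all 3 LKO arrays and on none of the control arrays. With control values raised to the lowest above-background signal of each array, its LKO mean was 3.00-fold higher. That figure is not a lower limit, since other settings gave less. Ccl3 is among the 4 genes just counted, and it entered the test through the LKO arrays alone (adjusted p = 0.267 in limma). Its fitted log2 change of 2.05 was 0.63 with normexp, 0.94 with the slide column in the fit and 1.47 without LKO 2. Its measured scaled signals were 0.0800, 0.386 and 0.166 in LKO livers, against 0.0450, 0.0443 and 0.0362 in control livers. Selp, an adhesion receptor of endothelium and platelets, had a log2 change of 0.52 ± 0.15 (SE, adjusted p = 0.300). Cxcl1, a neutrophil chemokine chosen after its value was seen, was 1.77, 10.7 and 27.6 in LKO livers, against 0.806, 1.70 and 1.18 in control livers (adjusted p = 0.360), with LKO 1 just above the highest control. Mean differences of this list from the control mean were -0.11, 0.48 and 0.76 in LKO 1, 2 and 3, against -0.090 to 0.17 in the controls.

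**Figure D5:**
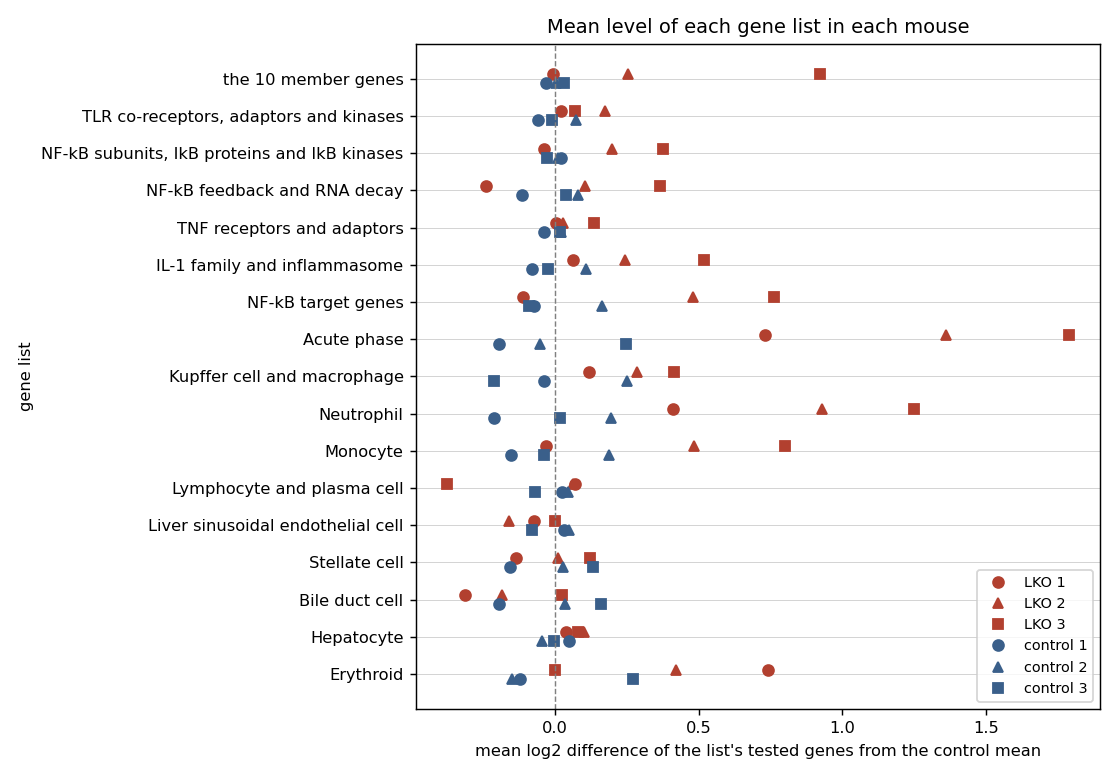
Mean log2 difference from the control mean, over the tested genes of each list, in each mouse, with LKO mice in red above the controls in blue. Both LKO 2 and LKO 3 stand to the right of every control for the 10 genes, for every pathway list except TLR co-receptors, and for the Kupffer cell, neutrophil, monocyte and hepatocyte markers. LKO 1 stands to the right of every control for the acute phase, neutrophil and erythroid lists and, by little, the lymphocyte list.

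Acute phase genes and markers of immune cells were measured beside these genes. Acute phase genes had mean differences from the control mean of 0.73, 1.36 and 1.79 in LKO 1, 2 and 3, against -0.19 to 0.25 in controls. LKO 3 had the highest value in 20 of 21, against 19.1% of all genes tested. Saa2 and Saa1, serum amyloid A proteins of the acute phase, had log2 changes of 3.48 ± 0.38 and 3.28 ± 0.40 (SE, adjusted p = 0.100 for both). Lcn2, which binds bacterial iron carriers and was chosen after its value was seen, was 10, 19.3 and 49.6 in LKO livers, against 1.75, 1.66 and 4.89 in control livers.

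All 20 tested markers of Kupffer cells and macrophages had higher means in LKO, against 50.8% of all genes tested, with a median of 0.20. Of these, 0 passed in limma and 2 were higher at an unadjusted p under 0.05, against 5.56% of all genes tested. Their summed scaled signal was 158 to 188 in LKO and 129 to 174 in control livers. Marco, a scavenger receptor of macrophages, was 5.34, 5.83 and 10.7 in LKO livers, against 3.55, 4.20 and 1.66 in control livers (adjusted p = 0.349), and Lyz2, the macrophage lysozyme, had a log2 change of 0.46 ± 0.12 (SE, adjusted p = 0.267). Of the monocyte markers, 5 of 7 were higher with a median of 0.30, and sums were 12.1 to 16.3 in LKO and 11.9 to 14.0 in control livers. Chil3, a chitinase-like protein of myeloid cells, had a log2 change of 1.77 ± 0.45 (SE, adjusted p = 0.267) and Treml4 of 0.36 ± 0.14 (SE, adjusted p = 0.424). Ccr2 and Plac8 changed by 0.48 and 0.30 with the groups overlapping. Cx3cr1, Ly6c2 and Spn hardly changed, at 0.023, -0.0062 and -0.0076.

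Of the neutrophil markers, 5 of 7 tested were higher, with a median log2 change of 0.24. Mean differences of the list from the control mean were 0.41, 0.93 and 1.25 in LKO 1, 2 and 3, against -0.21 to 0.19 in controls. Their summed scaled signal was 74.3 to 86.8 in LKO and 68.7 to 79.9 in control livers, and most of that sum was Csf3r, a growth factor receptor, at 59.4 to 67.5 in LKO and 60.1 to 71.6 in control livers. S100a8, a calcium-binding protein of neutrophils and monocytes, was 0.731, 1.81 and 3.99 in LKO livers, against 0.211, 0.463 and 0.348 in control livers (adjusted p = 0.261). Retnlg had a log2 change of 1.23 ± 0.33 (SE, adjusted p = 0.278). S100a8 and S100a9 changed by 2.43 and 2.21 on that scale. Mmp8 and Camp changed by only 0.24 and 0.18, and Csf3r and Elane were lower, at -0.044 and -0.19. Mpo, Ngp and Cxcr2 were not well above background on any array. A different number of cells of a type and a different amount of RNA per cell cannot be told apart in whole liver, and the part of these cells in the values of the 10 genes was not tested.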

How the data were processed

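One-colour Agilent mouse arrays of 6 livers were analysed, 1 array per mouse, with 0.1 µg of total RNA labelled per the labels' protocols. Per the submitters' processing notes, Agilent Feature Extraction 11.5.1.1 made the files. The deposited processed signal is an intensity that the software had background-corrected, and the deposited flags for background, saturation and outliers are other values of the software. The authors' value table is an intensity too: it equals the processed signal times 1 constant per array (2.08 to 2.48), with column medians of 55.3 to 63.7, and no source used here says how the constants were chosen.

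Processed signals were put on the log2 scale, and each array's log2 75th percentile over non-control spots (265 to 298 signal units) was taken off. Outlier spots were left out. A gene was its brightest probe and was tested if that probe was well above background on the 3 arrays of either group. For Tnf, Il1b, Tlr4, Cd14 and Nfkbiz, which have 2 probes, disagreements are given in the text. Accessions were matched to RefSeq names (GRCm38.p6), which named 32994 probes, 0 with several symbols and 23611 with none. The file headers name another build, so the only coordinates printed are those of RefSeq's promoter stretches.

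Groups were compared with limma 3.58.1 in R 4.3.3, two-sided, Benjamini-Hochberg over all 14170 genes. The fit was tested on simulated data. The members and lists were chosen with earlier results of these data known. Named were all members, from each list any gene past the threshold or otherwise the 2 with the smallest p, and for each member the 3 nearest profiles. A gene that the rule names is not reported here. Equal replicate numbers gave no sign of pairing the mice, as described in the closing section. Alternatives were other scalings, normexp (offset 50), the authors' table, filters, averaged probes, trend and robust eBayes, the block, the slide column and each mouse left out.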

Additional observations from a re-analysis of the deposited data

How the results depend on the processing

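Members past the threshold numbered 0 under all 16 alternatives. The directions of Tnf, Nfkbia, Nfkbiz, Myd88 and Cd14 held in all of them, with the log2 change of Tnf between 0.79 and 1.14 and that of Nfkbia between 0.14 and 0.55. Apart from the slide column fit, the adjusted p of Tnf lay between 0.125 and 0.496, and that of Lbp between 0.0326 and 0.628. For Nfkbia it reached 0.0907 without LKO 1, and the lowest value of Lbp came from that setting too. Without LKO 1, group and slide column coincide, so results of that setting cannot tell them apart. With slide column in the fit, the median of the members was 0.0512, and the changes turned to -0.0226 for Tlr2, -0.148 for Nfkb1, -0.591 for Tnfaip3 and -0.137 for Bcl3. The cause was not tested, but this fit rests on LKO 1 alone. Nfkb1 was at -0.00983 with normexp. With 1 mouse left out, the log2 changes ranged from -1.12 to 0.0669 for Il1b, -0.129 to 0.189 for Nfkb1, -0.192 to 1.08 for Tlr4 and -0.0713 to 0.677 for Tnfaip3, and the median of the members from 0.0966 to 0.595. The count of genes called, 2 with all mice, was 1 with normexp, without a filter on dim probes, with genes above background on all 6 arrays and with the slide column, 13 with trend and robust eBayes, and between 1 and 15 with 1 mouse left out (15 without LKO 1). In the paired fit with the replicate block it was 3, the median of the members was 0.369 and 0 members passed, while Saa1 and Saa2 passed (adjusted p = 0.0274 and 0.0222). Equal numbers deviated from their group means with correlations over genes of 0.0449, -0.0547 and -0.07, which gave no sign of a pairing by number. With 3 mice per group and no litters given, these values cannot exclude a pairing. The number of arrays limits the precision, and second probes of Tnf and Tlr4 lay below background.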

Other observations

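Erythroid markers had higher means in LKO for 4 of 4 tested genes, and here LKO 1 was highest, with mean differences from the control mean of 0.74, 0.42 and 0.0011 in LKO 1, 2 and 3, against -0.15 to 0.27 in controls. The band 3 anion exchanger gene Slc4a1 had a log2 change of 0.74 ± 0.29 (SE, adjusted p = 0.424), and Hbb-bt, a globin gene, of 0.41 ± 0.23 (SE, adjusted p = 0.569). Of 10 tested lymphocyte and plasma cell markers, 6 were higher and 4 lower with a median of 0.0082. Their mean difference was lowest in LKO 3, at -0.38, against 0.071 and 0.062 in LKO 1 and 2 and -0.071 to 0.045 in controls. The 2 with the smallest p were lower: Jchain, which joins the chains of secreted antibodies, had a log2 change of -0.90 ± 0.26 (SE, adjusted p = 0.307), and Cd3g, a T cell receptor chain, -0.64 ± 0.24 (SE, adjusted p = 0.401). None of these genes passed in limma.

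Endothelial markers had a median log2 change of -0.024, with Tie1, a vascular receptor, at -0.18 ± 0.08 (SE, adjusted p = 0.475) and Flt4, a receptor for lymphatic growth factors, at -0.27 ± 0.16 (SE, adjusted p = 0.583). Stellate cell markers had a median of -0.0027, with Hgf, the hepatocyte growth factor, at 0.52 ± 0.14 (SE, adjusted p = 0.278) and Des, the filament protein desmin, at -0.76 ± 0.24 (SE, adjusted p = 0.344). Hepatocyte markers had a median of 0.066, with Ambp, a plasma protein precursor, at 0.22 ± 0.08 (SE, adjusted p = 0.380). Bile duct markers were mixed: of 6 tested, 2 were higher and 4 lower, with a median of -0.20. The groups did not overlap for 1 of them, against 17.3% of all genes tested. Without a filter on dim probes the median was 0.114. The summed scaled signal of the list was 5.17, 7.48 and 8.97 in LKO 1, 2 and 3, against 5.46 to 6.69 in controls. Most of that sum was Spp1. Spp1 and Sox9 were higher in LKO, at 0.33 and 0.24, with the groups overlapping. The 2 with the smallest p were lower. Krt19, a keratin of bile duct cells, was at -0.69 ± 0.20 (SE, adjusted p = 0.300), below every control in all 3 LKO mice, and Pkhd1, a protein of cilia, at -0.42 ± 0.18 (SE, adjusted p = 0.461).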
